A study of Mus musculus with 2 samples.

Results

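The genes described here are 8 B cell receptor and identity genes, Cd79a, Cd79b, Ms4a1, Cd22, Pax5, Ebf1, Spib and Pou2af1. They were chosen by name, and all 8 were found among 49550 genes of chromosomes 1 to 19 and X in RefSeq's gene table for GRCm38.p6, which is mm10. END-seq, which ligates adapters to DNA double-strand break ends and maps them base by base, was run on CD43-negative B cells from the spleens of mice aged 4 to 8 weeks. The S-phase library came from cells activated for 24 or 28 h by anti-CD40 (1 µg/mL) together with IL-4 (25 ng/mL), and the G1-phase library from quiescent cells that received neither. The same culture times, 24 and 28 h, are recorded for the quiescent cells. The series' design text gives replication-dependent breaks, without external DNA damage, as the question. Phase and activation cannot be told apart here, since the S-phase cells were the activated ones. Both titles carry the name ATR+c, which the labels do not explain, and no strain is named. Each group had 1 library, without a replicate or a test, so every ratio below compares these libraries and not the conditions.

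The B cell receptor is a membrane immunoglobulin that signals through a heterodimer of CD79A and CD79B, whose cytoplasmic tails are phosphorylated when antigen binds. CD20, encoded by Ms4a1, is a membrane protein that modulates this signal, and CD22 is a sialic acid binding coreceptor that dampens it. EBF1 and PAX5 are the transcription factors that specify and hold B lineage identity, SPI-B is an ETS family factor, and the protein of Pou2af1 is a coactivator that binds octamer factors at immunoglobulin and other B cell promoters. END-seq counts breaks in DNA and gives no measure of expression, so whether these genes were highly transcribed in these cells was not measured.

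In total 21997695 reads were counted for S phase and 28933109 for G1 phase. Counts were scaled to the reads on chromosomes 1 to 19 (20543572 and 26889564) and are given as RPM, reads per 1000000 of these. No molecular identifiers were used, so reads stacked on a base can be copies of 1 molecule. Covered positions, each base of a strand counted once, are therefore given beside reads. On the autosomes a covered position held 2.90 S-phase or 3.99 G1-phase reads. Intervals are exact 95% intervals for counting error only and understate the error of stacked reads.

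The promoters of 4 of these genes show how thin the signal was. These are the genes with the most reads of both libraries in the 250 bases before the start site, read 5′ to 3′ along the gene from RefSeq (GRCm38.p6), with each base that carried a counted end in either library in capitals. They lie at chr7:24897247-24897496 on the plus strand for Cd79a, chr4:44710695-44710944 on the minus strand for Pax5, chr11:44617850-44618099 on the plus strand for Ebf1 and chr7:44532072-44532321 on the minus strand for Spib.
Cd79a: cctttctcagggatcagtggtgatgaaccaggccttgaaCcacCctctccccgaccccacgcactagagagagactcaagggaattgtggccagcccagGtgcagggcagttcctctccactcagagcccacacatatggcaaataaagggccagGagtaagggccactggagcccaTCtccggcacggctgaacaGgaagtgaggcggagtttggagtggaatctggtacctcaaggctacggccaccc
Pax5: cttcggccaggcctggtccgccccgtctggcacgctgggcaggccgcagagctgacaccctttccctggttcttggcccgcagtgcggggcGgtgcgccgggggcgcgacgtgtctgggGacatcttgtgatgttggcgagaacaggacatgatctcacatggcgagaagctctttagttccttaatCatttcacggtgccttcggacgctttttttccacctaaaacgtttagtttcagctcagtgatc
Ebf1: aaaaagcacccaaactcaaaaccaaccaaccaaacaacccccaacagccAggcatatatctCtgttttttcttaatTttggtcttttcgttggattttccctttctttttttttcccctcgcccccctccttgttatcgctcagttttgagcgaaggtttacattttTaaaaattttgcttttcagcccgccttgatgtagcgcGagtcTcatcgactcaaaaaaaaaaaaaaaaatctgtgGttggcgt
Spib: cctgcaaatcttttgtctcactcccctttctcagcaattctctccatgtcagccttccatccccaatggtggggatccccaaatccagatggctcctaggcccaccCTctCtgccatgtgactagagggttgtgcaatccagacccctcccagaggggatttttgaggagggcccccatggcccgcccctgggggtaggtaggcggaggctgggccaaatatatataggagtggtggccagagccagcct

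In these 250 bases Cd79a held 9 S-phase and 6 G1-phase reads, Pax5 4 and 9, Ebf1 15 and 11, and Spib 7 and 9. Each library covered at most 4 positions of a window. They were scattered in Cd79a, Pax5 and Ebf1, and in Spib all lay 140 to 144 bases before the start. There the libraries met on a base: the position 144 bases before the start held 4 minus-strand reads in S phase, and 5 minus-strand and 4 plus-strand reads in G1 phase. In Pou2af1 there were 8 reads in S phase and in Cd22 4, and both were at 0 in G1 phase, which allows up to 0.112 RPM, the level of 3 reads. Cd79b and Ms4a1 had no entry in the promoter table.

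The promoter windows differed in base composition. Over the 300 bases of the table, which run from 250 before to 50 after the start, G+C made up 58.3% in Cd79a, 52.3% in Cd22, 59.0% in Pax5, 36.7% in Ebf1, 58.0% in Spib and 55.3% in Pou2af1. Pax5 had 23 CpG sites, Ebf1 9, Cd79a and Pou2af1 8, Cd22 4 and Spib 2. A set of 5 motifs was searched on both strands. The GC box CCGCCC was found in Pax5 and Spib and in 36.2% of 26793 promoters. The ETS-type motif GAGGAA was found in Cd79a and Pou2af1 and in 28.1% of promoters. Other forms of ETS site were not searched. The EBF motif, TCCC and GGGA with 2 free bases between them, was found in Cd22, 49 to 40 bases before the start, and in 0.903% of promoters. TATAAA (14.2% of promoters) and the octamer ATGCAAAT (1.78%) were in none of the 6 windows.

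Over whole genes the break-end densities ran from below the median of protein-coding genes to well above it. Each count took in the gene and its flanks of 2 kb. The 8 genes together held 5336 reads on 1922 positions in S phase and 6656 reads on 1589 positions in G1 phase. Densities ran from 0.359 to 0.600 RPM per kb in the S-phase library and from 0.285 to 0.640 in the other. The median of 21339 protein-coding genes with a mean of at least 20 reads was 0.397 and 0.365 RPM per kb. Among these, in S and G1 phase, Cd79a ranked at percentiles 87.2 and 93.0 and Ms4a1 at 83.3 and 80.3. Spib ranked at 80.1 and 84.6, and Cd79b at 72.1 and 72.2. The ranks of Cd22, Pax5, Ebf1 and Pou2af1 ran from 35.4 to 44.9 in S phase and from 21.0 to 51.5 in G1 phase.

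Among the receptor components, Cd79a (chromosome 7, 24897497 to 24901858) was the densest of the 8 genes when counted with its flanks. It held 103 reads on 37 positions in S phase and 144 on 33 in G1 phase, which gave 0.600 (0.489 to 0.727) and 0.640 (0.540 to 0.754) RPM per kb. This stood at the 87.2nd and 93.0th percentile of protein-coding genes, and at 1.54 and 1.76 times the density of the 100 kb on both sides. The ratio of S over G1 phase was 0.936 (0.720 to 1.21). Its window reaches into Arhgef1. Of the S-phase reads 26 lay in 1 kb beyond the end of Cd79a (24902497 to 24903496), a stretch that overlaps Arhgef1. From 1 kb after its start to its end, Cd79a itself held 0.377 RPM per kb in S phase and 0.631 in G1 phase. The partner gene Cd79b (chromosome 11, 106311341 to 106314562), the shortest of the 8, held 70 reads on 27 positions and 85 on 19. Its densities were 0.472 and 0.438 RPM per kb, 1.06 times its surroundings in each library, with a ratio of 1.08 (0.774 to 1.497).

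Among the surface proteins, Ms4a1 (chromosome 19, 11249679 to 11266149) held 231 reads on 78 positions in S phase and 264 on 61 in G1 phase, or 0.549 and 0.480 RPM per kb. Both densities lay above their surroundings, 1.39 and 1.24 times, although by covered positions the G1 value was 0.920 (0.695 to 1.197). Its ratio was 1.15 (0.956 to 1.37). The gene lies inside the long noncoding gene 4930526L06Rik, and reads cannot be assigned to either. Cd22 (chromosome 7, 30865404 to 30880342) held 149 reads on 56 positions and 145 on 40. It was the lowest of the 8 genes in G1 phase at 0.285 RPM per kb, the 21.0th percentile, against 0.383 in S phase. Its ratio of 1.35 (1.06 to 1.70) was the highest of the 8 by reads. By covered positions it was 1.33 (0.871 to 2.05), an interval that held 1, and on the minus strand alone the ratio was 0.986 (0.702 to 1.38). Its window overlaps D7Ertd128e.

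Among the regulators, Pax5 (chromosome 4, 44524748 to 44710694) held 1473 reads on 554 positions in S phase and 1729 on 434 in G1 phase. Its densities of 0.377 and 0.339 RPM per kb lay just under the medians of protein-coding genes. Its ratio was 1.12 (1.04 to 1.196), and 1.21 (1.07 to 1.38) by covered positions. The RNA genes Mir5120, Gm12462 and 5730488B01Rik lie within it. Ebf1 (chromosome 11, 44618100 to 45008096), the longest, held 2978 reads on 1045 positions and 3911 on 905, or 0.368 and 0.369 RPM per kb. It had the narrowest interval of the 8 and a ratio of 0.997 (0.9499 to 1.05), with 1.098 (1.003 to 1.201) by covered positions.

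Spib (chromosome 7, 44525995 to 44532087) held 108 reads on 42 positions in S phase and 139 on 39 in G1 phase. Its densities of 0.521 and 0.512 RPM per kb were 1.27 and 1.58 times the surroundings, and the ratio was 1.02 (0.783 to 1.32). Its window overlaps the ends of Mybpc2, a muscle myosin binding protein gene, and of Pold1, the catalytic subunit of DNA polymerase delta. Pou2af1 (chromosome 9, 51213690 to 51240079) held 224 reads on 83 positions and 239 on 58. Its densities were 0.359, the lowest of the 8 in S phase, and 0.292 RPM per kb, and its ratio was 1.23 (1.02 to 1.48), or 1.36 (0.961 to 1.94) by covered positions.

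**Figure D1:**
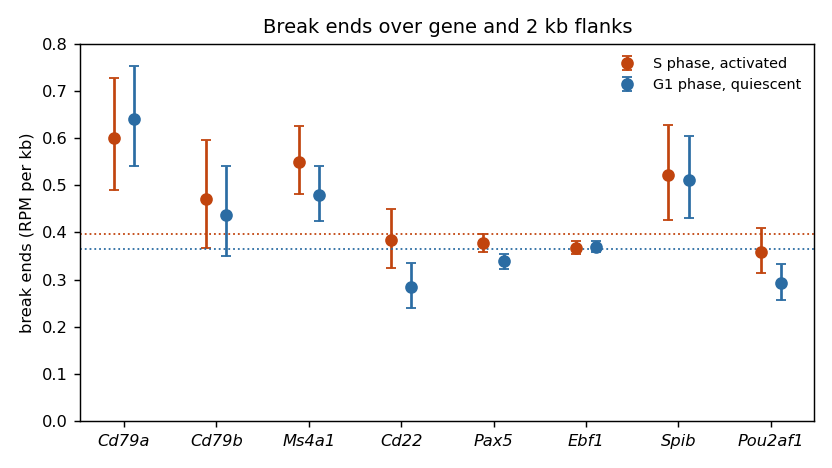
Break ends in RPM per kb over each gene with 2 kb flanks. Points are the library values and bars their exact 95% Poisson intervals (counting error only, n = 1 library each), and dotted lines are the medians of protein-coding genes (0.397 in S phase, 0.365 in G1 phase). Cd79a, Cd79b, Ms4a1 and Spib lie above the lines in both libraries, and the intervals of the libraries overlap for every gene but Pax5.

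Compared between the libraries, none of the 8 genes with flanks reached a ratio of 1.5 or fell to its inverse. Without flanks Cd79a passed the lower bound, at 0.600 (0.385 to 0.918). On the plus strand alone Cd22 (1.85), Cd79b (1.72) and Spib (1.54) passed the upper. These settings also moved other genes past the bounds. Of all genes 7064 were lower without flanks and 10704 higher on the plus strand, against 4412 and 7412 with flanks and both strands. With flanks and both strands, 15.5% of all 47913 genes with a mean of at least 20 reads were at least 1.5-fold higher in S phase. At least 1.5-fold lower were 9.21%, and among protein-coding genes the shares were 12.3% and 4.4%. By covered positions no member passed either bound, beside 14.3% and 6.85% of all genes and 11.3% and 3.12% of protein-coding genes. The intervals of 3 members (Cd22, Pax5 and Pou2af1) lay above 1 and none below, against 28.7% and 13.4% of all genes and 36.7% and 11% of protein-coding genes. By covered positions the intervals of 2 members (Pax5 and Ebf1) lay above 1, against 9.59% of all genes and 15.4% of protein-coding genes. None lay below, against 2.89% and 2.87%. The median ratio of the 8 was 1.097 by reads, beside 1.102 for protein-coding genes, and 1.21 by positions against 1.13. The count of ratios above 1 was 6 of 8 by reads and 8 of 8 by positions, beside 67.1% and 72.2% of protein-coding genes. Scaling to the median gene, which lowers every log2 ratio by 0.11, left no member with an interval above 1 and Ebf1 with an interval below it.

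**Figure D2:**
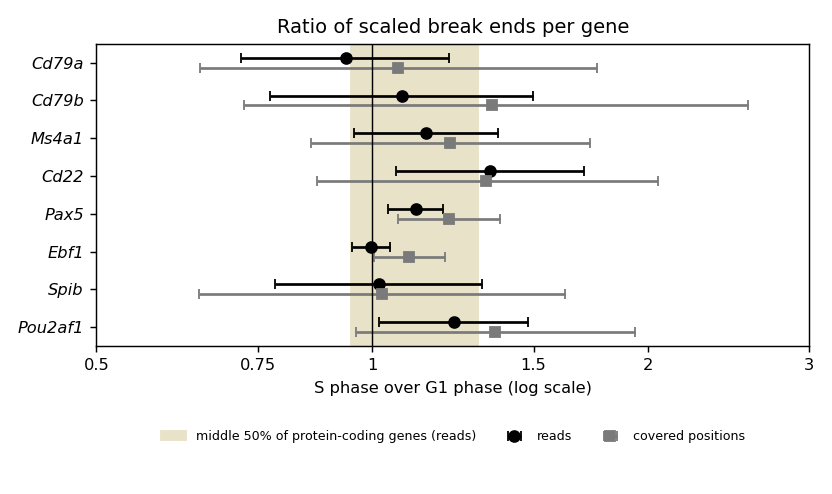
Ratio of S phase over G1 phase for each gene with 2 kb flanks, by reads (circles) and by covered positions (squares), on a log axis. Bars are conditional exact 95% intervals for counting error, and the shaded band is the middle 50% of protein-coding genes by reads (0.949 to 1.30). Cd79a (0.936) and Cd22 (1.35) lie just outside the band by reads, on either side of it.

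The share of plus-strand reads was higher in S phase than in G1 phase in 8 of 8 genes, and in G1 phase it was under 50% in 8 of 8. By covered positions it was higher in S phase in 7 of 8, the exception being Pou2af1 (41.0% and 46.6%). How many of all genes went these ways is not given, so the counts describe the 8 genes alone. By reads the intervals of the libraries overlapped for every gene but Pax5. By covered positions the shares of Pax5 were 48.7% in S phase and 48.6% in G1 phase. Protein-coding genes had a median of 50.0% plus-strand reads in each library, with 5th and 95th percentiles of 33.3% and 66.7% (S phase) and of 32.8% and 66.7% (G1 phase). Cd79b had few plus-strand reads in both libraries, 30.0% (19.6 to 42.1) and 18.8% (11.2 to 28.8), outside that range. Spib had 42.6% (33.1 to 52.5) and 28.1% (20.8 to 36.3), the latter outside the range. These shares rested on few positions: 33.3% of 27 and 15.8% of 19 for Cd79b, and 38.1% of 42 and 33.3% of 39 for Spib. The long genes were near even, with 51.4% and 46.3% for Pax5 and 51.4% and 49.9% for Ebf1. The ratio at Cd22 differed by strand, 1.85 (1.32 to 2.62) on the plus and 0.986 on the minus strand, whereas that of Ms4a1 was 1.16 and 1.13.

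Gene starts were compared with gene bodies, the start being 1 kb on both sides of the most upstream start in the promoter table and the body the rest of the gene from 1 kb after it. Over 15163 protein-coding genes with a body of at least 1 kb the starts held 1.17 RPM per kb in S phase and 0.818 in G1 phase on average, against 0.371 and 0.362 in bodies. A minority of genes carried much of this, and the median start held 0.560 and 0.465 RPM per kb.

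Among the 6 B cell genes with an entry, Ebf1 had the densest start in S phase. Its start held 81 reads on 21 positions in S phase and 42 on 12 in G1 phase, or 1.97 (1.56 to 2.45) and 0.781 RPM per kb. In S phase the start density was 5.55 times (4.40 to 6.92) that of the body and in G1 phase 2.15 times (1.54 to 2.91), and by positions 4.06 times (2.50 to 6.24) and 2.65 times (1.37 to 4.66). The S-phase reads lay mostly upstream: 59 of them, on 14 positions, fell at bases -1000 to -501 from the start, where the G1-phase library held 22 on 7. The start ratio of S over G1 phase was 2.52 (1.72 to 3.76) by reads, but 1.66 (0.782 to 3.71) by positions. The second start of Ebf1 in the table, at 44620228, had 25 and 26 reads, a ratio of 1.26 (0.697 to 2.27).

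By reads Pou2af1 and Pax5 followed Ebf1 in S phase. By positions the start over body density was 2.70 (1.36 to 4.97) for Pou2af1 and 1.55 for Pax5, the latter below Cd79a at 1.68 and near Cd22 at 1.48. The start of Pou2af1 held 33 reads on 13 positions in S phase and 24 on 6 in G1 phase, 2.41 times (1.61 to 3.51) and 1.43 times (0.896 to 2.19) the body density. That of Pax5 held 31 reads on 9 positions and 24 on 6, 2.01 times (1.36 to 2.87) and 1.32 times (0.846 to 1.98) the body density. Their S over G1 ratios were 1.80 (1.03 to 3.18) and 1.69 (0.960 to 3.01). By positions both intervals held 1, at 2.06 (0.730 to 6.61) and 1.43 (0.453 to 4.87).

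Cd79a and Spib went the other way by reads. The Cd79a start held 22 reads on 9 positions in S phase and 51 on 11 in G1 phase, a ratio of 0.565 (0.326 to 0.948). Of the 51 reads in G1 phase 49 ran against the direction of the gene, whereas in S phase 12 ran along it and 10 against it. On the plus strand alone the ratio thus turned to 7.85 (1.75 to 72.2), from 12 and 2 reads. By positions the ratio was 0.778 (0.285 to 2.06). The start of Spib held 25 reads on 7 positions and 49 on 10, a ratio of 0.668 (0.395 to 1.102). In both libraries most of its reads, 21 and 41, ran along the gene. Cd22 had the emptiest start, with 17 reads on 8 positions and 15 on 5, level with its body at 1.13 times (0.631 to 1.90) and 0.956 times (0.516 to 1.65). Its outermost annotated end lies 1314 bases before the start used.

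**Figure D3:**
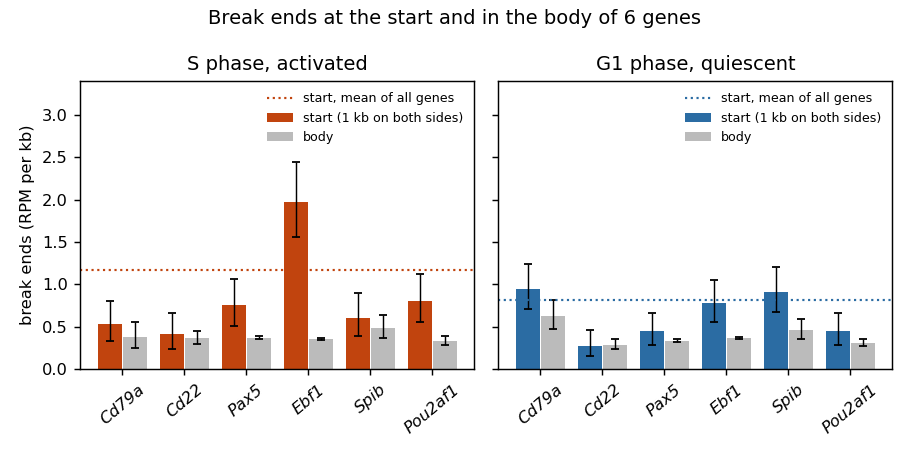
Break ends in RPM per kb at the start (1 kb on both sides) and in the body of the 6 genes with a start in the promoter table, with exact 95% Poisson intervals (counting error only). The dotted line is the mean start of 15163 protein-coding genes (1.17 in S phase, 0.818 in G1 phase). In S phase Ebf1 alone exceeds the line, and in G1 phase Cd79a and Spib do. The median start, not drawn, was lower than this mean (0.560 in S phase, 0.465 in G1 phase).

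Of these 6 genes 3 had a start density at least 2 times the body density in S phase (Ebf1, Pou2af1 and Pax5) and 1 in G1 phase (Ebf1), beside 41.2% and 33.3% of protein-coding genes. By positions Pax5 fell short at 1.55 (0.704 to 2.96), which left Ebf1 and Pou2af1 in S phase and Ebf1 in G1 phase, beside 39.2% and 31.1%. The width of the window mattered too. With 2 kb on both sides Pou2af1 was at 1.16 and Pax5 at 1.67 in S phase, and Ebf1 at 1.87 in G1 phase. With 500 bases Ebf1 was at 3.02 in S phase and 1.12 in G1 phase, where Pax5 reached 2.10 and Cd79a 2.03. Starts of 5 of the 6 held a mean of at least 20 reads over both libraries, and Cd22 did not. Of these 5, Ebf1, Pou2af1 and Pax5 were at least 1.5-fold higher in S phase and Cd79a was at least 1.5-fold lower, beside 44.8% and 9.61% of 8759 protein-coding starts. The intervals of Ebf1 and Pou2af1 lay above 1 and that of Cd79a below, beside 46.3% and 6.39%. By positions Ebf1 and Pou2af1 were at least 1.5-fold higher and Spib, at 0.665 (0.215 to 1.94), was at least 1.5-fold lower, beside 42.9% and 7.19%, and 0 of the 5 had an interval off 1 in either direction, beside 13.4% above and 0.457% below. A difference at these starts was thus not detectable at this depth once stacked reads were counted once.

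In bodies the libraries were closer. The body ratio was 1.111 (1.03 to 1.19) for Pax5, 0.976 (0.929 to 1.02) for Ebf1, 1.26 (0.938 to 1.68) for Cd22, 1.07 (0.870 to 1.31) for Pou2af1 and 1.06 (0.718 to 1.56) for Spib. That of Cd79a was 0.597 (0.360 to 0.965), from 26 and 57 reads on 9 and 11 positions, and by positions 0.778 (0.285 to 2.06). It was the only 1 of 6 bodies at least 1.5-fold lower, beside 5.04% of 14000 protein-coding bodies, and none was at least 1.5-fold higher, beside 10.6%. The interval of Pax5 lay above 1 and that of Cd79a below, beside 28.2% and 13%. By positions the interval of Pax5 alone lay above 1 and none below, beside 10.9% and 3.17%, and no body passed 1.5-fold either way, beside 10.7% and 3.51%.

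Around the starts of all protein-coding genes the ends gathered just upstream. The 500 bases before the start held 2.61 (S phase) and 1.71 RPM per kb (G1 phase), and bases -5000 to -4501 held 0.391 and 0.362. In the mean of the 6 genes the same 500 bases held 1.05 and 0.868 RPM per kb, from 65 and 70 reads. The next bin upstream was higher in S phase, at 1.44 RPM per kb from 89 reads, and 59 of these were at Ebf1. In G1 phase it held 0.806 from 65 reads, of which Ebf1 had 22, Cd79a 18 and Spib 14. After the start the mean of the 6 genes was 0.471 and 0.335 RPM per kb in the first 500 bases, against 1.02 and 0.702 for all genes. These sums rest on 6 genes and a few stacks each, and a minority of genes carried much of the mean of all genes. By reads in the 1 kb on both sides, the 6 starts ranked from the 36.8th (Cd22) to the 85.2nd percentile (Ebf1) of protein-coding genes in S phase. In G1 phase they ranked from the 27.8th (Cd22) to the 78.4th (Cd79a).

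**Figure D4:**
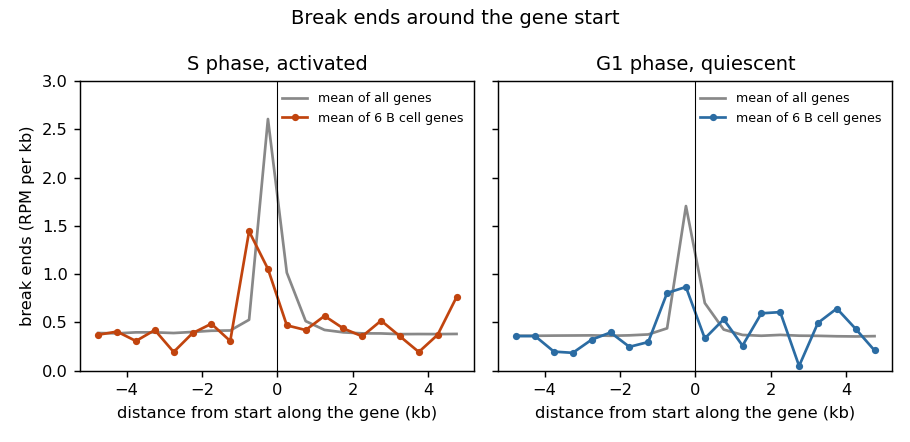
Mean break ends in RPM per kb in 500-base bins around the gene start, with upstream to the left, for the 6 B cell genes (coloured) and all protein-coding genes (grey). All genes peak in the bin just before the start (2.61 in S phase, 1.71 in G1 phase), where the 6 genes reach 1.05 and 0.868. A minority of genes carries much of the mean of all genes.

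Start density over all genes went with the CpG content of the promoter window, and it is given as a description beside the members. Genes with 0 to 5 CpG sites averaged 0.410 RPM per kb at their starts in S phase and 0.382 in G1 phase. Those with 6 to 16 averaged 0.870 and 0.645, those with 17 to 26 averaged 1.71 and 1.15, and those with 27 to 65 averaged 1.74 and 1.13. Cd22 (4 sites) held 0.414 and 0.279, above the mean of its class in S phase and below it in G1 phase. Pax5 (23 sites) with 0.754 and 0.446 lay under the mean of its class, whose median was 0.949 and 0.650. Ebf1 (9 sites) with 1.97 and 0.781 lay above the mean of its class, whose median was 0.462 and 0.390. Spib, with the fewest sites (2), held 0.608 and 0.911, above the mean of its class in both libraries. Cd79a (8 sites) held 0.535 and 0.948, below the class mean in S phase and above it in G1 phase, and Pou2af1 (8 sites) with 0.803 and 0.446 lay below it in both. Cd79a and Pou2af1 lay above the median of that class (0.462 and 0.390) in both libraries. The S over G1 ratio of summed starts was 1.07 in the lowest class and 1.54 in the highest.

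For Cd79b and Ms4a1 the table gave no start, and both ends are described. The higher-coordinate end of Ms4a1 held 65 reads on 20 positions in S phase and 43 on 10 in G1 phase, 1.58 and 0.799 RPM per kb. Its ratio was 1.98 (1.33 to 2.98) by reads and 1.90 (0.849 to 4.55) by positions. The lower-coordinate end had 14 and 39 reads on 8 positions each, a ratio of 0.470 (0.236 to 0.885) by reads and 0.951 (0.311 to 2.91) by positions. The ends of Cd79b held 18 and 10 reads at the lower coordinate and 24 and 27 at the higher. The ratio at the lower end was 2.36 (1.03 to 5.71), from 6 and 2 positions, and at the higher end 1.16 (0.643 to 2.09).

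Within the genes, the stretches with the most ends were found by bins of 1 kb laid from the left edge of each window, and chosen for their height. The median autosomal bin held 7 S-phase and 9 G1-phase reads. In Pax5 the same bin was highest in both libraries, chr4:44703748-44704747, between 5947 and 6946 bases after the start and inside the noncoding gene 5730488B01Rik. It held 71 reads on 21 positions in S phase and 79 on 13 in G1 phase. Only 0.119% and 0.0984% of autosomal bins held as many. Its ratio was 1.18 (0.842 to 1.64). The reads were spread over both strands, 38 plus and 33 minus in S phase and 17 plus and 62 minus in G1 phase. Within it 3 positions were covered in both libraries, at 44704543, 44704586 and 44704604. This bin thus held more reads than the 2 kb around the start of Pax5 (31 and 24).

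In Ms4a1, too, the highest bin was the same in both libraries, at its higher-coordinate end (chr19:11265679-11266678), with 49 and 33 reads, reached by 0.197% and 1.58% of autosomal bins. In Ebf1 the highest S-phase bin was the 1 kb before its start, with 74 reads against 33 in G1 phase, reached by 0.112% and 1.58% of bins. Its highest G1-phase bin was elsewhere, 346000 bases into the gene, with 42 reads and 14 in S phase. In Cd79a the highest G1-phase bin was the 1 kb before the start, with 36 reads, 34 of them on the minus strand, against 15 in S phase. In Pou2af1 the highest bins did not coincide. The one in S phase, 23000 bases after the start, held 24 reads on 9 positions against 2 reads on 1 position in G1 phase, and was chosen for its S-phase count.

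The 2 long genes were each divided into 10 equal segments. In Ebf1 the segments ranged from 0.268 to 0.441 RPM per kb (S phase) and from 0.302 to 0.461 (G1 phase). By reads the interval of the ratio lay above 1 in 1 segment of Ebf1 and below 1 in 3, and by positions in 0 and 0. In Pax5 the segment that begins at the start was the densest in both libraries, 0.586 and 0.498 RPM per kb. The 1 kb bin inside 5730488B01Rik gave 71 of its 224 S-phase reads and 79 of its 249 G1-phase reads. The other segments lay between 0.257 and 0.497 (S phase) and between 0.240 and 0.388 (G1 phase). The highest ratio of Pax5, picked as the highest of 10, was in the segment from 44599126 to 44617720. It was 1.73 (1.38 to 2.16) from 190 and 144 reads, and 1.74 (1.13 to 2.70) from 64 and 35 positions.

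**Figure D5:**
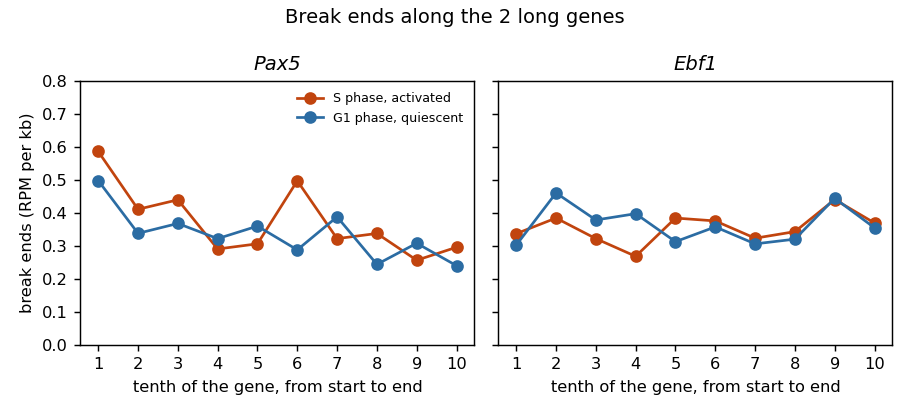
Break ends in RPM per kb in 10 equal segments of Pax5 and Ebf1, ordered from the start of the gene to its end, in each library. Pax5 is highest in its first segment (0.586 and 0.498), which holds the dense bin inside 5730488B01Rik, and Ebf1 stays between 0.268 and 0.461.

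Stacks and shared positions describe how these counts arose. The highest position of a gene held between 6 and 15 reads in S phase and between 8 and 15 in G1 phase. In the shortest gene, Cd79b, a stack of 11 reads made up 12.9% of the G1-phase reads, and in Ebf1 the highest G1-phase stack, of 15, made up 0.384%. Of the covered positions of the 8 genes 24 were covered on the same strand in both libraries, 1.25% of those in S phase and 1.51% of those in G1 phase, beside 1.83% and 1.93% over the autosomes. Cd79a and Spib had 4 each, 10.8% and 9.52% of their S-phase positions, and Cd22 and Pou2af1 had 0. All 4 of Cd79a lay in its flanks, among them the adjacent bases 24903138 and 24903139. The shared position with the most reads was in Spib at 44531203 on the minus strand, with 8 and 9 reads.

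Other genes of B cells were counted from 2 lists. Of 25 genes of B cell receptor signalling, 22 had a log2 ratio above 0 (pseudocount of 1) and 3 below, beside 67.1% of protein-coding genes above 0. The median of the 25 was 0.35 beside 0.14 for protein-coding genes. Of the 25, 4 were at least 1.5-fold higher in S phase and 0 lower, beside 12.3% and 4.4% of protein-coding genes. Cd37, a tetraspanin gene, held 132 and 88 reads, a ratio of 1.96 (1.49 to 2.60), or 1.54 (0.906 to 2.69) by positions. The lowest were Btk, the X-linked tyrosine kinase gene, at 0.808 (0.670 to 0.973) and the complement receptor gene Cr2 at 0.927 (0.841 to 1.02).

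Of 20 regulators of the B lineage, 17 lay above 0 and 3 below, beside 67.1% of protein-coding genes above 0, and the median was 0.22. At least 1.5-fold higher was 1 and lower were 0, beside 12.3% and 4.4% of protein-coding genes. The higher gene was Id3, an inhibitor of E proteins, which held 81 and 38 reads. Its ratio was 2.79 (1.88 to 4.22), or 2.42 (1.17 to 5.39) by positions. Pou2f2, whose protein is an octamer factor, followed at 1.45 (1.31 to 1.61), and Irf4 at 0.918 (0.766 to 1.098) and Ikzf3 at 0.940 (0.843 to 1.05) were lowest. Genes of other lineages, counted the same way, gave medians on the same side. The 16 T cell genes had a median of 0.23, with 12 above 0 and 4 below, beside the same 67.1%. Of these genes 3 were at least 1.5-fold higher and 1 lower, beside the same 12.3% and 4.4%. They ran from Cd8a at 1.93 (1.37 to 2.73) and Cd8b1 at 1.91 (1.47 to 2.47) to Themis at 0.799 (0.753 to 0.848) and Cd3e at 0.638 (0.461 to 0.876). By positions the intervals of Cd8a (0.888 to 3.11) and Cd3e (0.430 to 1.41) held 1, and those of Cd8b1 and Themis did not. The 12 myeloid genes had a median of 0.31, or 0.07 by positions, with 10 above 0 and 2 below. At least 1.5-fold higher were 2 and lower 1, beside these same shares. Gfi1 stood at 1.85 (1.34 to 2.56), Csf3r at 1.79 (1.43 to 2.26), Lyz2 at 0.825 (0.584 to 1.16) and Cebpe at 0.554 (0.320 to 0.928). By positions 0 of the 12 myeloid genes had an interval above 1 and 0 below, beside 15.4% and 2.87% of protein-coding genes. By the same measure 11 of the 25 signalling genes lay above and 0 below. Of the 20 regulators 10 lay above and 0 below, and of the 16 T cell genes 3 and 1. The 8 receptor and identity genes had a median of 0.13 on the same scale.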

How the data were processed

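The deposited bedGraph tables, 4 in all, hold a library and a strand each. Their values were taken, as the authors deposited them, to be raw read-end counts at single bases with no scaling. All counts, covered positions and intervals here rest on that reading. The submitters' processing notes name mm10, Bowtie 1.1.2, SAMtools 1.11 and bedtools. Their settings and the treatment of duplicate and multiply matching reads are not stated in the labels used.

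Sums over genes used numpy 2.4.6 and pandas 2.3.3 in Python 3.11.15, intervals scipy 1.17.1, and plots matplotlib 3.10.9. Ratios carry conditional exact Poisson intervals and shares exact Clopper-Pearson intervals, both at 95%. Genes with a mean of at least 20 reads over both libraries form the background. Gene strand and start came from the RefSeq promoter table, which held 6 of the 8 genes, and the 4 lists matched 73 of 73 symbols. The members and lists were chosen with earlier results of these data known. Named are all 8 genes, the 2 highest and 2 lowest of each list, of which 1 is not reported here, and overlapping genes; 1 kb bins, gene segments and shared positions were chosen after their values were seen. The counting was tested on simulated data. Alternatives covered scaling, strands, stacked reads, flanks, windows, thresholds and the pseudocount.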

Additional observations from a re-analysis of the deposited data

How the results depend on the processing

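Of 440 values recomputed under alternatives, 360 stayed within the interval of the reported value or within 1.5 times the reported count, 73 moved further, and in 7 a value whose interval excluded its reference of 1 went to the other side of it. A further 31 ratios crossed 1 from a reported interval that held 1, among them Cd79a and Ebf1 by positions (1.066 and 1.098), Cd79b without flanks (0.814) and Spib on the minus strand (0.812). Counts of members with an interval above 1 were 3 as reported, 0 scaled to the median gene or on the minus strand alone, and 1 without flanks or with 99% intervals. Members with an interval below 1 were 0 as reported and 1 scaled to the median gene or without flanks. On the plus strand alone 3 members (Cd22, Cd79b and Spib) were at least 1.5-fold higher, and without flanks 1 (Cd79a) was at least 1.5-fold lower. Of all genes, 7412 were at least 1.5-fold higher and 4412 lower, and scaled to the median gene 5550 and 5768. The lower genes numbered 7054 on the plus strand, 6954 on the minus strand and 7064 without flanks. In the same settings the higher genes numbered 10704, 10435 and 9868. With 5 kb flanks the numbers were 4823 and 2372, with a fold of 2 they were 2379 and 1547, and with a minimum of 50 reads 4163 and 2043. Intervals of all genes above and below 1 numbered 13728 and 6403, by covered positions 4594 and 1384, and 4140 lay below with 99% intervals. The median of the B lineage regulators was 0.12 scaled to the median gene.

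The 7 were Cd22 (0.986) and the body of Pax5 (0.991) on the minus strand alone, the Cd79a start on the plus strand (7.85), Ms4a1 over its surroundings in G1 phase by positions (0.920), and, with the gene end in place of the start, Pou2af1 in S phase (0.875) and Cd79a (0.707) and Spib (0.846) in G1 phase. Beyond the strands, windows and scalings themselves, the cause was not tested. Gene starts rested on 5 to 21 positions, which limits what a ratio there can show.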
